A study of Mus musculus with 3 samples.

Results

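The genes described here are 10 markers of epithelial cells: the simple-epithelium keratins Krt7, Krt8, Krt18 and Krt19, the basal-layer keratins Krt5 and Krt14, and the junction genes Dsp, Cdh1, Epcam and Cldn4. They were taken as the genes to which the RefSeq accession of a probe belongs, and 13 of the 39404 probes kept, for 10 of 20010 named genes, met this rule. The cells were primary mouse embryonic fibroblasts of C57BL/6J background, derived from an embryo at embryonic day 10, and in every group (Rb-/-;ATM-/-) they lacked Rb, the retinoblastoma gene, as well as ATM, which encodes a kinase that responds to DNA damage. The 3 groups carried a vector with a hairpin (shRNA) that targets DNMT1, the enzyme that copies DNA methylation to new strands, a vector for ATM, or an empty vector. All were selected in puromycin at 4 ug/ml for 3 days and grown for 4 more days. Each group was measured on 1 Agilent array in 1 colour (Cy3), so no difference below has a replicate culture or a p-value, and this number of arrays sets the limit of precision.

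Keratins are intermediate filament proteins that polymerise only as pairs of a type I with a type II chain. Krt8 (type II) pairs with Krt18 (type I) in single-layered epithelia, where Krt7 and Krt19 are often added, and Krt5 (type II) pairs with Krt14 (type I) in the basal layer of stratified epithelia such as the epidermis. Dsp (desmoplakin) ties keratin filaments to desmosomes, Cdh1 (E-cadherin) holds adherens junctions together, Epcam is a surface adhesion molecule of epithelia and Cldn4 is a claudin of tight junctions. Fibroblasts are mesenchymal cells whose intermediate filament is vimentin, and keratins serve there as marks of epithelial character.

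Dnmt1 had a processed signal of 956 on the Dnmt1 shRNA array, 3169 on the ATM-labelled array and 4908 on the empty-vector array, 4.58-fold lower with the hairpin than with the empty vector. The Atm probe that was above background gave 366, 409 and 430 on the same 3 arrays, so it does not check the ATM vector, and the name ATM-labelled array is used for that sample. Rb1 gave 782, 459.7 and 541 from a probe whose place relative to the deletion is not known here. Of 17 fibroblast markers, 17, 16 and 16 were well above background, and of 9 markers of blood and endothelial cells, 4, 4 and 5. The ATM-labelled array lay alone on slide 2 and the other arrays on slide 1, so for it slide and group cannot be told apart. In bulk RNA, fewer cells of a type and less RNA per cell cannot be told apart either.

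Epithelial markers were detected more widely on the Dnmt1 shRNA array. A gene counted as detected where a probe was marked well above background by the scanner software. Of the 10 genes, 8 were detected on the Dnmt1 shRNA array, 5 on the ATM-labelled array and 4 on the empty-vector array. Over all named genes the detected shares were 68.1%, 63.3% and 63.7%. Krt19, Krt5, Krt14 and Cdh1 were detected on all 3 arrays, and Krt7 on both arrays other than the empty-vector array. Krt8, Krt18 and Dsp were detected on the Dnmt1 shRNA array alone, a pattern that 3.85% of all named genes shared. Epcam and Cldn4 were dim on all 3 arrays.

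**Figure D1:**
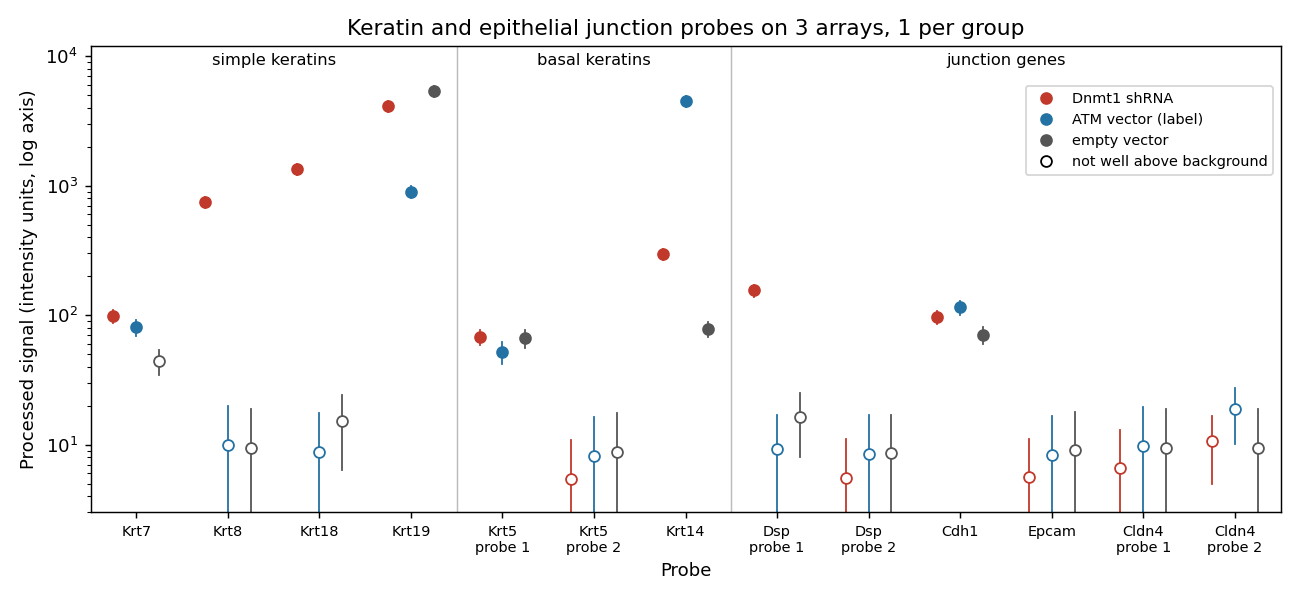
Processed signal of each of the 13 probes (vertical log axis, intensity units) on the 3 arrays, with bars for the scanner software's own error and open circles for spots not well above background. Krt8 and Krt18 stand above background on the Dnmt1 shRNA array only, and Krt14 is highest on the ATM-labelled array.

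Krt8 and Krt18, the partner chains of the simple-epithelium filament, had the largest differences of the group in cells with the Dnmt1 hairpin. Krt18 had a processed signal of 1341 ± 134 on the Dnmt1 shRNA array, 8.74 ± 8.72 on the ATM-labelled array and 15.3 ± 8.97 on the empty-vector array, where ± is the error that the scanner software gives for the spot. Krt8 had 742 ± 74.5, 9.87 ± 9.85 and 9.50 ± 9.50 on the same arrays. For both genes the errors on the 2 dim arrays were close to the signals themselves or more than 50% of them, and those levels have no order. After each array was scaled to its 75th percentile, Krt18 was at least 39.8-fold and Krt8 at least 22.0-fold higher on the Dnmt1 shRNA array than on the empty-vector array. These are bounds, with the dim side set at the lowest normalized signal marked well above background there (or the gene's own signal, if higher). Against the Dnmt1 shRNA array, Krt18 was at least 41.8-fold and Krt8 at least 23.2-fold lower on the ATM-labelled array, a comparison across slides.

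Because Dnmt1 maintains methylation at CG dinucleotides, the promoters of 3 genes with large differences are shown with each CG in capitals. They are the 250 bases before the annotated start in RefSeq (build GRCm38.p6), written 5′ to 3′ on the strand of the gene, and the table held 8 of the 10 members. Krt18 lies on the plus strand at chr15:102027966-102028215, Krt14 on the minus strand at chr11:100206031-100206280 and Dsp on the plus strand at chr13:38151044-38151293.
Krt18: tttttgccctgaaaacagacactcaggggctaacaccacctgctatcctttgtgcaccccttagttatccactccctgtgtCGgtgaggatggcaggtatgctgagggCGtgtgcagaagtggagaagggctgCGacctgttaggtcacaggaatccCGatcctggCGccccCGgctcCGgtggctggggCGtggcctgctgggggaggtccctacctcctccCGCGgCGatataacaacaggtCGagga
Krt14: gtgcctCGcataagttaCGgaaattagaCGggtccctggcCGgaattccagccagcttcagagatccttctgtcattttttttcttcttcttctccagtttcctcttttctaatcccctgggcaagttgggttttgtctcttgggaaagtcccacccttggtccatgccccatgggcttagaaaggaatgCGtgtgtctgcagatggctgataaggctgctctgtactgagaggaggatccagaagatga
Dsp: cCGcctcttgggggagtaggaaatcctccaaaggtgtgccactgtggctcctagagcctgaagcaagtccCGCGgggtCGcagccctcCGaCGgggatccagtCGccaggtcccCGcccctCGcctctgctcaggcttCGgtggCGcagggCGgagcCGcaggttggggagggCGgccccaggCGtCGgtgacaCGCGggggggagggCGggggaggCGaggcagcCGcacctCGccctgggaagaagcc

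The 3 sequences differ in how many CG dinucleotides they hold. Krt18 has 12, and 33.5% of the 32851 promoters in the table hold as many or more. Krt14 has 5 (55.6%) and Dsp has 22 (14.8%), beside a median of 6 over all promoters. Krt8, whose promoter is not shown, has 3 (71.0%). Krt7 has 16, Epcam 8, Cldn4 7 and Krt5 2. No methylation was measured here, and a link between CG number and signal was not tested.

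The promoters were also searched on both strands for CACCTG, an E-box that the repressors Snai1 and Snai2 are known to bind. It was present in 6 of the 8 member promoters and in 17.2% of all promoters. The sites of Krt18 and Krt7, simple keratins that were higher on the Dnmt1 shRNA array, are shown with the motif in capitals, at chr15:102027990-102028019 (plus strand) and chr15:101412347-101412376 (plus strand) of the same build.
Krt18: aggggctaacacCACCTGctatcctttgtg
Krt7: ccgccctgtcccCACCTGtgtgcgctcagc
Krt8, which was higher on the Dnmt1 shRNA array, held the motif too. Krt5, Epcam and Cldn4, which were level or dim, held the motif as well, and Krt14 and Dsp held none. TGANTCA, the AP-1 motif, was found in 1 of the 8 and in 6.75% of all promoters, and GGGCGG, the GC box, in 4 of the 8 and in 32.7%. A match of letters is not a measured binding site.

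Krt7, a simple-epithelium type II keratin, had a small difference near the detection limit. Its signal was 98.1 ± 11.2 on the Dnmt1 shRNA array, 80.5 ± 11.1 on the ATM-labelled array and 44.1 ± 9.88 on the empty-vector array, the last not well above background. That dim signal lay above the lowest detected signal of 37.8 units, so the ratios to it are measured values and not minima. Krt7 was 2.49-fold higher on the Dnmt1 shRNA array and 2.01-fold higher on the ATM-labelled array than on the empty-vector array. With background corrected by normexp instead, which here adds an offset of 50 units, the log2 values were 0.72 and 0.51. Both thus fell under 2-fold. Scaling to the array median gave 1.08 and 0.97, and quantile normalization 1.08 and 0.98. The ATM-labelled array over the Dnmt1 shRNA array gave a log2 ratio of -0.31, beside a scanner error of 0.26.

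Krt19, the simple keratin that lacks most of the tail domain, went its own way. Its signal was 4094 ± 409 on the Dnmt1 shRNA array, 899 ± 90.1 on the ATM-labelled array and 5351 ± 535 on the empty-vector array. Between the Dnmt1 shRNA and the empty-vector array the log2 ratio was -0.22, close to the scanner error of 0.20. The ATM-labelled array was 5.41-fold lower than the empty-vector array and 4.64-fold lower than the Dnmt1 shRNA array. Of the simple keratins it was thus the one detected on every array, and it was not higher where Krt8 and Krt18 were detected.

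Krt14, the basal type I keratin, was highest on the ATM-labelled array. Its signal was 296 ± 30.0 on the Dnmt1 shRNA array, 4491 ± 449 on the ATM-labelled array and 78.3 ± 10.9 on the empty-vector array, so that the 3 arrays were separated by far more than the scanner error. The log2 ratio to the empty-vector array was 2.08 (scanner error 0.25) on the Dnmt1 shRNA array, or 4.24-fold, and 5.98 (0.25) on the ATM-labelled array, or 63.1-fold. Between them, the ATM-labelled array was 14.9-fold higher than the Dnmt1 shRNA array. Its partner Krt5 showed nothing of the kind: the detected probe gave 67.7 ± 8.61, 51.9 ± 9.71 and 66.4 ± 10.5 on the 3 arrays, and the log2 ratios to the empty-vector array, 0.19 and -0.22, were within the scanner errors of 0.29 and 0.35. The second Krt5 probe was dim on all 3 arrays.

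**Figure D2:**
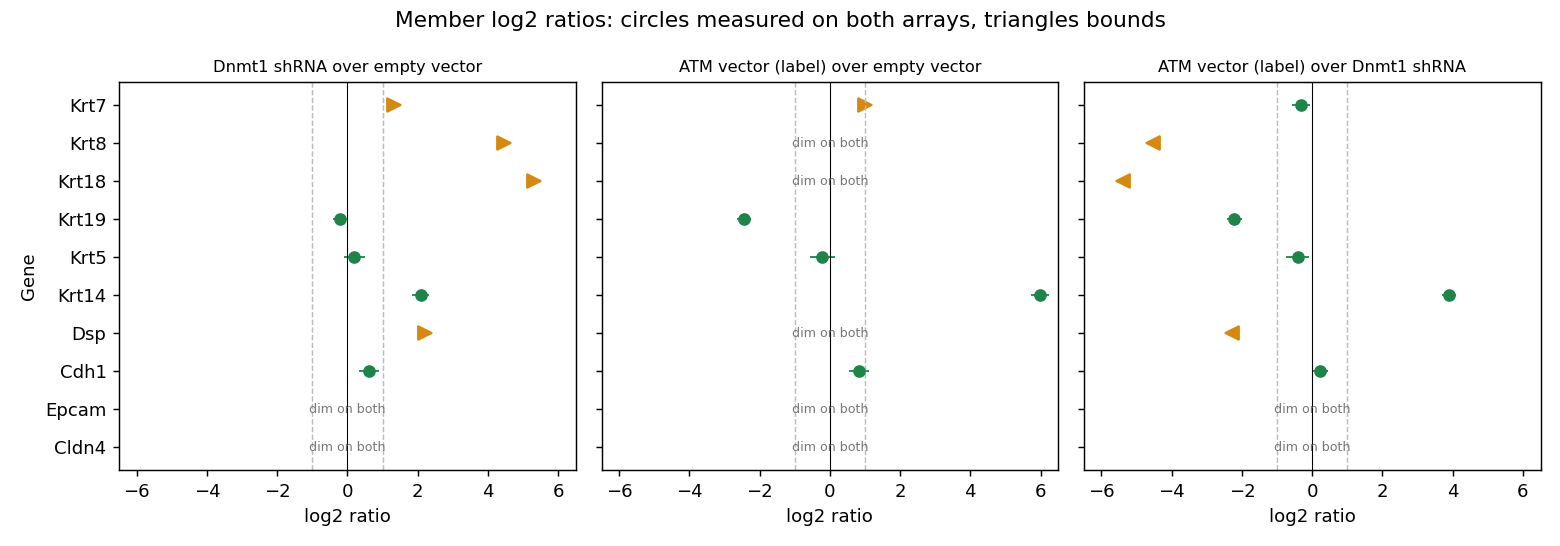
Log2 ratio of each of the 10 genes in the 3 comparisons (horizontal axis), with circles and scanner-error bars where both arrays were above background, triangles where the value is a bound, and dashed lines at 2-fold. Krt8 and Krt18 have the largest bounds with the Dnmt1 hairpin (at least 22.0-fold and 39.8-fold), and Krt14 the largest ratio on the ATM-labelled array (63.1-fold). The Krt7 triangles stand at the ratio to its own dim signal and are not minima.

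Among the junction genes, Dsp was detected with the Dnmt1 hairpin only. One of its 2 probes was printed in 10 spots, which gives a technical spread. The signal was 156 ± 8.64 on the Dnmt1 shRNA array (SD over spots, n = 9 after outlier spots were left out), 9.50 ± 2.61 on the ATM-labelled array (n = 9) and 16.9 ± 4.16 on the empty-vector array (n = 8). Before scaling, spots on the Dnmt1 shRNA array ran from 140.1 to 169, and those on the empty-vector array reached at most 23.8. Dsp was at least 4.61-fold higher on the Dnmt1 shRNA array than on the empty-vector array, and at least 4.85-fold lower on the ATM-labelled array than on the Dnmt1 shRNA array. The other Dsp probe was dim on all 3 arrays (5.49, 8.49 and 8.55), so the call rests on 1 probe.

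Cdh1 was detected at a low level everywhere, and its probe also had 10 spots. The signal was 96.8 ± 4.71 on the Dnmt1 shRNA array, 115 ± 11 on the ATM-labelled array and 70.9 ± 7.57 on the empty-vector array (SD over spots, n = 10 each). Before scaling, spots ran from 88.0 to 102 on the Dnmt1 shRNA array and from 104 to 136 on the ATM-labelled array. On the empty-vector array they ran from 58.9 to 83.8. How many other probes with repeated spots differ as much was not counted. The log2 ratios to the empty-vector array were 0.62 and 0.84, under 2-fold in both cases. Spots of an array share 1 labelled RNA, so their spread leaves out the variation between cultures. Epcam gave 5.58, 8.31 and 9.01 on the Dnmt1 shRNA array, the ATM-labelled array and the empty-vector array, and the Cldn4 probes gave at most 18.9. Neither gene has a fold change, since all of these signals were not well above background.

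**Figure D3:**
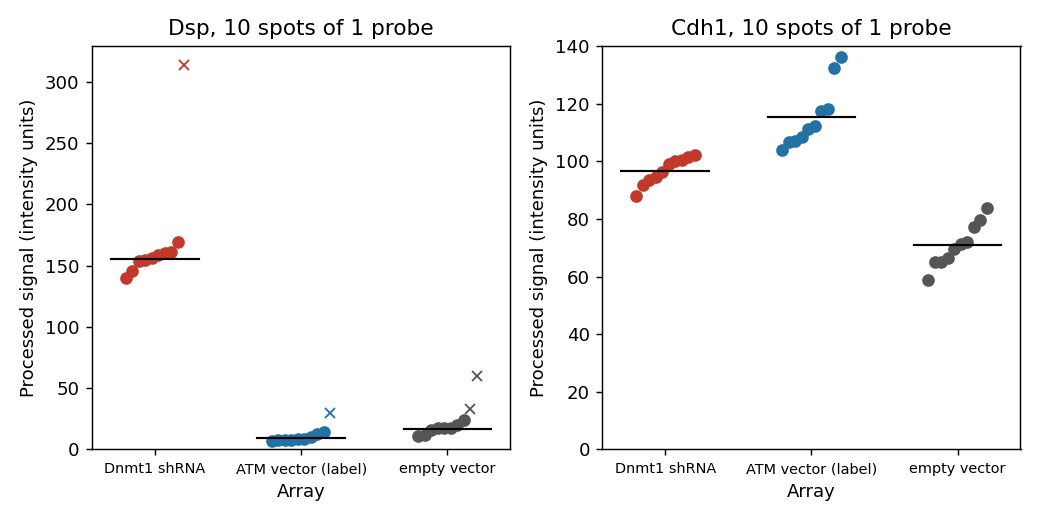
Processed signal (vertical axis, intensity units) of the 10 spots of the Dsp probe and of the Cdh1 probe on each array, sorted by value within an array, with crosses for spots marked as outliers and a line at the mean of the others. The Dsp spots of the Dnmt1 shRNA array lie above 140, and the Cdh1 spots of the 3 arrays differ by less than 2-fold on average.

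Counted together, 8 of the 10 genes could be compared between the Dnmt1 shRNA and the empty-vector array, and 5 of them (Krt18, Krt8, Krt7, Dsp and Krt14) were at least 2-fold higher and 0 lower. Of all 13785 genes compared, 5.19% were at least 2-fold higher by the same rule and 1.57% lower. The median log2 ratio was 1.70 over the 8 genes and -0.01 over all genes. Krt7, Krt8, Krt18 and Dsp could be compared only because they were detected with the Dnmt1 hairpin, and of all 1041 genes of that kind 23.8% passed 2-fold by bound. Scaling to the array median in place of the 75th percentile gave totals over all genes of 508 higher and 321 lower, and quantile normalization 578 and 293, beside 716 and 217.

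Between the ATM-labelled array and the empty-vector array 5 of the 10 genes could be compared, of which 2 (Krt14 and Krt7) were at least 2-fold higher and 1 (Krt19) was lower. Krt7 was detected on the ATM-labelled array of that pair only, and of all 498 such genes 46.8% passed 2-fold by bound. Over all 13242 genes the shares were 7.55% higher and 6.82% lower. Between the ATM-labelled array and the Dnmt1 shRNA array, 1 of 8 (Krt14) was higher and 4 (Krt18, Krt8, Dsp and Krt19) were lower, beside 7.08% and 9.89% of 13871 genes, with 982 higher and 1372 lower by the 75th percentile, 1427 and 1127 by the median and 1111 and 1257 by quantiles. Krt18, Krt8 and Dsp were detected on the Dnmt1 shRNA array of that pair only and could not come out higher, and of all 1206 such genes 40.1% were at least 2-fold lower by bound. The same limit holds for the gene lists below, where a gene detected on 1 array of a pair can differ in 1 direction only. The comparisons share arrays and are not independent of each other.

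Simple and basal keratins were set against each other as the difference of their mean log2 ratios, with bounds for dim sides. On the Dnmt1 shRNA array the 4 simple keratins averaged 2.72 and the 2 basal keratins 1.14 relative to the empty-vector array, a difference of 1.58 (scanner error 0.21). On the ATM-labelled array the 2 simple keratins that could be compared, Krt7 and Krt19, averaged -0.71 and the basal keratins 2.88, a difference of -3.60 (0.26). Directly between the ATM-labelled array and the Dnmt1 shRNA array the difference was -4.86. Krt7, Krt8 and Krt18 were dim on the empty-vector array and so could not come out lower relative to it. Krt8 and Krt18 were dim on the ATM-labelled array and could not come out higher there than on the Dnmt1 shRNA array. Both basal keratins were detected on all 3 arrays and could differ in either direction. The signs of 1.58 and -4.86 are thus partly set by the detection rule. Neither class moved as a unit: with the Dnmt1 hairpin the simple keratins ran from -0.22 (Krt19) to at least 5.31 (Krt18), and on the ATM-labelled array the basal keratins stood at -0.22 (Krt5) and 5.98 (Krt14).

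Position along the chromosome was examined next, because keratin genes lie in a type I cluster on chromosome 11 and a type II cluster on chromosome 15, and the type I gene Krt18 lies beside Krt8 at the edge of the chromosome 15 cluster. Of the genes with a probe, Krt8 and Krt18 are direct neighbours. The 5 keratins on the Krt8 side were level or dim: Krt79 had a log2 ratio of 0.13 with the Dnmt1 hairpin, and Krt78, Krt4, Krt76 and Krt77 were dim on all 3 arrays. On the Krt18 side, Eif4b, Tns2 and Spryd3 stood between -0.09 and -0.07. Igfbp6, an IGF-binding protein 4 places from Krt18, was again higher, at 3.38 on the log2 scale (6151 with the Dnmt1 hairpin and 663 with the empty vector). Soat2, a sterol acyltransferase 5 places away, was higher by at least 3.47 on the Dnmt1 shRNA array and by at least 3.50 on the ATM-labelled array.

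Around Krt14 the neighbours differed in size and direction on the ATM-labelled array. Krt16, a keratin of wounded and hyperproliferative epidermis, was 1023 there and 288 on the empty-vector array (3.91-fold higher), and Krt9, a keratin of palm and sole skin, was 103 and 48.0 (2.37-fold higher). Krt13 and Krt36 stood at 0.81 and 0.58 on the log2 scale, and Krt15 at -0.01. Krt19, 2 places from Krt14, and Krt42, 3 places away on the other side, were lower, at -2.44 and -1.16. Krt17, whose sequence is close to those of Krt14 and Krt16, was dim on all 3 arrays. Probe sequences were not used here, so signals shared between such close relatives cannot be told apart.

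**Figure D4:**
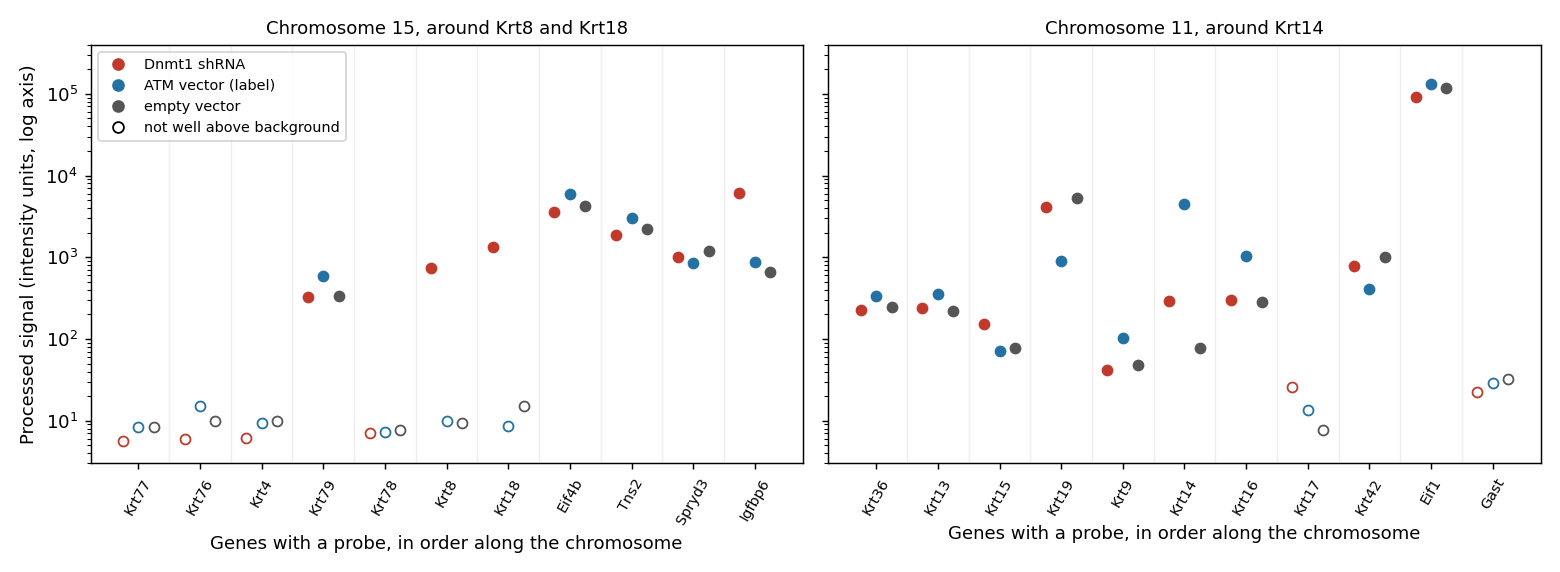
Processed signal (vertical log axis, intensity units) on the 3 arrays for genes in their order along chromosome 15 around Krt8 and Krt18 and along chromosome 11 around Krt14, with open circles for genes not well above background. Krt8 and Krt18 stand out from their direct neighbours on the Dnmt1 shRNA array, and Igfbp6 also differs (6151 against 663).

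The other keratins followed the members only in part. Their counts stand beside 5.19% of all genes higher and 1.57% lower with the Dnmt1 hairpin, and 7.55% and 6.82% on the ATM-labelled array. Of 11 further type I keratins, 7 could be compared with the Dnmt1 hairpin and 2 were at least 2-fold higher: Krt20, a keratin of intestinal and urothelial cells, was at least 3.41-fold higher (115 with the Dnmt1 hairpin and 7.61 with the empty vector), and Krt15, a basal keratin of hair follicles, was 2.20-fold higher. Of 6 compared on the ATM-labelled array, 2 were higher (Krt16 and Krt9) and 1 lower (Krt42). Of 14 further type II keratins 4 could be compared; with the Dnmt1 hairpin 0 were 2-fold different, and on the ATM-labelled array 1, Krt80, was 2.66-fold higher. Of 16 hair keratins on the array, 4 could be compared with the Dnmt1 hairpin and 1, Krt33a, was at least 2.17-fold higher, while 0 of 3 were different on the ATM-labelled array. Among other intermediate filaments, Des (desmin, the muscle filament) was at least 2.81-fold higher with the Dnmt1 hairpin and at least 6.95-fold higher on the ATM-labelled array, and Synm (synemin) was 2.71-fold and 2.92-fold higher. The fibroblast filament Vim had signals of 155090, 183386 and 178239 on the 3 arrays.

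Genes of the junctions to which keratins attach were followed in 3 lists. Of 20 desmosome and hemidesmosome genes, 2 of 14 that could be compared were at least 2-fold higher with the Dnmt1 hairpin, Evpl (envoplakin, 2.14-fold) and Itgb4 (an integrin of hemidesmosomes, 2.01-fold), and 0 were lower. Of 13 on the ATM-labelled array 5 were higher and 0 lower, among them the desmosomal plakophilins Pkp2 (1580 against 333, 5.22-fold) and Pkp1 (2.98-fold) and the desmosome-associated p53 target Perp (4.28-fold). The median log2 ratio of this list was 0.29 with the Dnmt1 hairpin and 0.49 on the ATM-labelled array, beside -0.01 and 0.02 over all genes, of which 5.19% and 7.55% were called higher. Dsp, the desmosomal plakin, was dim on the ATM-labelled array, although these partners were higher there. The desmosomal cadherins of the list, Dsg1a, Dsg2, Dsg3, Dsc1, Dsc2 and Dsc3, were dim on all 3 arrays and could not be compared. Of 10 adherens junction genes, Cdh3 (P-cadherin) was at least 2.83-fold higher with the Dnmt1 hairpin, with 95.4 on that array and 9.05 on the empty-vector array, while 0 of 8 were 2-fold different on the ATM-labelled array. Of 11 tight junction and polarity genes that could be compared, 1 (Cgn, cingulin, 3.75-fold) was higher with the Dnmt1 hairpin. Of 10 on the ATM-labelled array, 2, among them Patj (3.05-fold), were higher and 1 (Cldn7, 3.21-fold) was lower. The shares higher with the Dnmt1 hairpin were 10% of adherens and 9.09% of tight junction genes, 1 gene each, near the 5.19% of all genes. Over all genes 1.57% were lower with the Dnmt1 hairpin and 6.82% on the ATM-labelled array. The 10% of tight junction genes lower on the ATM-labelled array is near that 6.82%.

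Factors that are known to regulate epithelial genes ranged from dim to bright. Klf4 had 14808 on the Dnmt1 shRNA array, 24775 on the ATM-labelled array and 16052 on the empty-vector array. Ovol2 (11250, 10544 and 11573) and Sox9 (6110, 3889 and 5284) were also bright on these arrays. Of 24 genes for epithelial transcription or splicing factors, 14 were detected with the Dnmt1 hairpin, 10 on the ATM-labelled array and 11 on the empty-vector array. With the Dnmt1 hairpin 4 of 15 were at least 2-fold higher and 1 lower. The shares over all genes were 5.19% and 1.57% with the Dnmt1 hairpin, and 7.55% and 6.82% on the ATM-labelled array. Grhl2, an activator of Cdh1, was 114 with the Dnmt1 hairpin and 10.2 with the empty vector by its detected probe (at least 3.39-fold higher), and its other probe was dim throughout. Foxa1, a forkhead factor of endodermal and glandular epithelia, was at least 3.04-fold higher with the Dnmt1 hairpin and at least 4.81-fold higher on the ATM-labelled array. Ehf, an epithelial Ets factor, was at least 3.96-fold lower with the Dnmt1 hairpin by 1 probe, and its other probe was dim throughout. The first Ehf probe was dim on the ATM-labelled array as well (6.78 against 111 with the empty vector). Of 12 on the ATM-labelled array 1 was higher and 3 were lower, including the splicing factor Esrp2 (at least 4.67-fold) and Klf5 (4.48-fold). Of 11 detected factors of the mesenchymal state, 0 were 2-fold different with the Dnmt1 hairpin (median 0.02). Snai2 was 2.07-fold higher on the ATM-labelled array, and Twist2 and Snai1 were 8.33-fold and 2.95-fold lower. The E-box-binding repressor Snai1 had 12174 on the Dnmt1 shRNA array, 5257 on the ATM-labelled array and 17073 on the empty-vector array.

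Epithelial effector genes gave values in both directions. With the Dnmt1 hairpin 1 of 12 surface and secreted effectors, the protease St14 (matriptase), was at least 3.11-fold higher and 0 were lower. That is 8.33%, near the 5.19% of all genes that were higher, while 1.57% were lower. On the ATM-labelled array the shares over all genes were 7.55% and 6.82%. Lamb3, a chain of the basement membrane laminin of skin, was 14.5-fold higher on the ATM-labelled array (953 against 72.2). Mal2, a protein of apical transport, was dim there (6.66 against 799, at least 22.2-fold lower), and Lcn2 (lipocalin) was 3.52-fold lower. Of 18 keratinocyte differentiation genes on the array, 7 could be compared with the Dnmt1 hairpin, of which 1 (Lor, loricrin, 3.52-fold) was higher and 2 were lower (Krtdap, at least 2.38-fold, and Ivl, involucrin, 2.16-fold). On the ATM-labelled array, where Krt14 was 63.1-fold higher, 4 of 8 were higher and 3 lower, with Sbsn (3.51-fold) and Krtdap (3.34-fold) higher and Lor 3.50-fold lower.

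Markers of the mesothelium, a simple epithelium of the body cavities that expresses Krt8, Krt18 and Krt19, were detected along with Krt8 and Krt18. Apart from the members Cdh1 and Krt19, 7 such markers were on the array, of which 6 were detected on the Dnmt1 shRNA array, 1 on the ATM-labelled array and 2 on the empty-vector array. With the Dnmt1 hairpin 4 of 6 were at least 2-fold higher and 0 lower, and their log2 ratios had a median of 2.02, beside 5.19% of all genes higher. Wt1, Upk1b, Lrrn4 and Bnc1 were dim on the empty-vector array and so could not come out lower, and of all genes of that kind 23.8% passed 2-fold by bound. Upk3b, a uroplakin, had 801 on the Dnmt1 shRNA array, 16.4 on the ATM-labelled array and 57.0 on the empty-vector array, and was 15.8-fold higher than on the empty-vector array. Wt1, a transcription factor of mesothelium and kidney, had 167, 8.77 and 8.85 (at least 4.95-fold higher), and Upk1b had 150.4, 8.15 and 30.0 (at least 4.46-fold higher). Bnc1 was 124 with the Dnmt1 hairpin and 8.50 with the empty vector. Lrrn4 was 47.0 and 8.37, and Gpm6a was dim throughout. Msln (mesothelin) went another way, with 7690 on the Dnmt1 shRNA array, 40897 on the ATM-labelled array and 5510 on the empty-vector array (8.17-fold higher on the ATM-labelled array). The summed signal of the detected markers was 8979, 40897 and 5567 on the 3 arrays, most of it from Msln. The part of mesothelial cells in the Krt8 and Krt18 values was not tested.

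**Figure D5:**
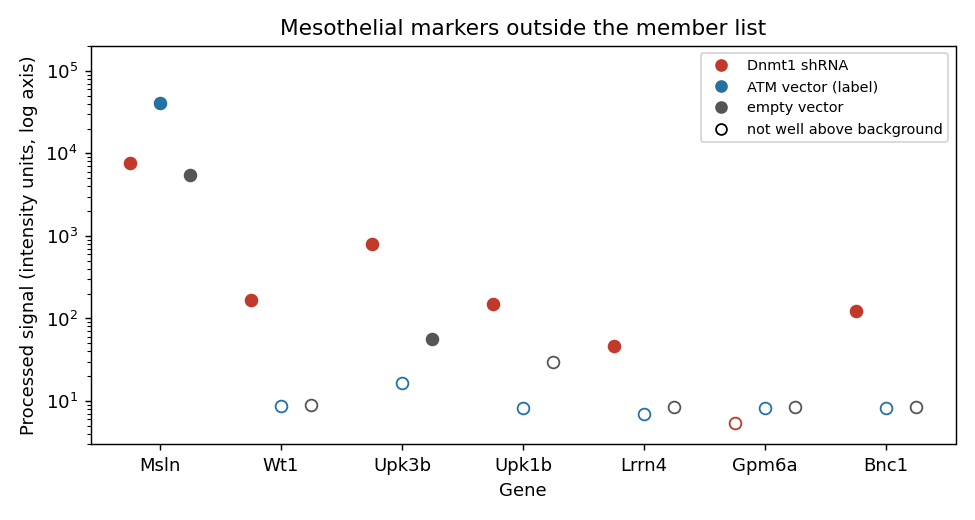
Processed signal (vertical log axis, intensity units) of the 7 mesothelial markers outside the member list on the 3 arrays, with open circles for signals not well above background. Wt1, Upk1b, Lrrn4 and Bnc1 are above background on the Dnmt1 shRNA array only, and Msln is highest on the ATM-labelled array (40897).

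Trophoblast, another embryonic source of Krt8 and Krt18, was represented by 17 markers on the array. They were detected in 8, 5 and 5 cases on the Dnmt1 shRNA array, the ATM-labelled array and the empty-vector array, with summed signals of 7850, 15543 and 14650. Among its transcription factors Cdx2, Elf5, Eomes, Tfap2c and Hand1 were dim on all 3 arrays. Gata3, which other tissues also express, was detected on all 3 arrays (2146, 2405 and 3291), as were 3 of 4 probes of Gcm1, a factor of the placental labyrinth. Before scaling, those Gcm1 probes were lower with the Dnmt1 hairpin than with the empty vector (2477 against 5905, 2009 against 4735 and 197 against 300). Ascl2, another placental factor, had 110.1 on the Dnmt1 shRNA array, a dim 13.4 on the ATM-labelled array and 61.5 on the empty-vector array. With the Dnmt1 hairpin 4 of 8 were at least 2-fold higher, including the X-linked homeobox genes Rhox9 and Rhox6 (at least 3.98-fold and 3.76-fold) and Plac1 (2.11-fold). By the mean of a gene's probes 0 were at least 2-fold lower. Over all genes 5.19% were higher and 1.57% lower with the Dnmt1 hairpin, and 7.55% and 6.82% on the ATM-labelled array. Rhox9 and Rhox6 were dim on the empty-vector array, and of all genes detected only with the hairpin in that pair 23.8% passed 2-fold by bound. Plac1 was 11.3-fold higher on the ATM-labelled array. Of 12 markers of endoderm and yolk sac, 1 of 8 was higher with the Dnmt1 hairpin (Rbp4, a retinol carrier, 2.19-fold) and 1 lower (Apom, 3.45-fold). Of 7 on the ATM-labelled array 0 were higher and 3 lower, with Rbp4 at least 17.2-fold and Apom 4.18-fold lower. Fibroblast markers were 2-fold higher in 3 of 17 cases with the Dnmt1 hairpin (Thy1, at least 36.2-fold, Lum, 2.49-fold, and Pdgfra, 2.26-fold) and lower in 1. Fibroblast markers on the ATM-labelled array were higher in 1 case and lower in 4, with Fap at least 23.8-fold, Lum 9.23-fold and Cdh11 6.40-fold lower.

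The genes with the most similar pattern were sought by the Euclidean distance between pairs of log2 ratios to the empty-vector array, among the 11783 candidate genes detected on the same arrays. The nearest genes are given for Krt14 and Krt19, whose ratios were measured on both sides. A search was also run for Krt7, Krt8 and Krt18, each dim on the empty-vector array, and is not reported here. Nearest to Krt14 were Hoxa7 (1.39 with the Dnmt1 hairpin and 5.84 on the ATM-labelled array), the alpha-globin gene Hba-a2 (1.35 and 5.66), Naip2 (2.13 and 4.86) and Ifitm1 (1.56 and 4.97). Nearest to Krt19 were Tmc7, Flrt3, Cep295nl and Parp8, at -2.34, -2.41, -2.40 and -2.49 on the ATM-labelled array. With 3 arrays, such likeness is a description.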

How the data were processed

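RNA of 3 cultures was measured on 1 Agilent 1-colour array each. Per the submitters' processing notes, the scanner output that was deposited came from Agilent Feature Extraction 10.7.3.1. Its processed signal is a linear intensity after subtraction of local background and spatial detrending, with a surrogate near background, per the file headers. The other quantities used from the deposited files are per-spot marks of 0 or 1, the scanner error and, for normexp, the median intensity of spot and local background. The authors' deposited value table holds linear, uncentred intensity within 0.495% of that signal, with column medians of 80.4, 68.6 and 75.2 (Dnmt1 shRNA, ATM vector, empty vector). The computations used Python 3.11.15, numpy 2.4.6 and pandas 2.3.3, and limma 3.58.1 for normexp.

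Control and outlier spots were left out (235, 167 and 228 outlier spots on those 3 arrays). Spots of a probe were averaged as log2 of the deposited intensity, and the 75th percentile of the array was subtracted (2061, 2101 and 2312 units). A probe was detected if at least 50% of its spots were marked well above background. A gene's ratio is the mean over probes detected on either array. A side on which all its probes are dim gives a bound against the lowest detected signal (25.1, 32.7 and 37.8 units). Where the gene's own dim signal is higher, that signal is used instead. Scanner files held no mean spot signal, so normexp used the median, with an offset of 50 units. Of 39404 probes, 26397 had 1 symbol, 0 several and 13007 none, by RefSeq accession and GRCm38.p6 names. The array was designed on mm9. The script was tested on simulated data in which only bright genes were changed, so fold changes given as bounds were not tested.

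The members and the 16 further lists were chosen with earlier results of these data known. Named genes were all members, Dnmt1, Atm and Rb1, up to 3 genes per list past 2-fold with the largest difference in each comparison with the empty vector, and the 4 genes most similar to a member, given for Krt14 and Krt19 only, since bounds have no pattern. Some genes the rule names are not reported here. Genes beyond these, such as Bnc1, Lrrn4, Vim, Cdx2, Klf4 and Dsg2, were named after their values were seen.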

Additional observations from a re-analysis of the deposited data

How the results depend on the processing

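Values were recomputed under 8 listed alternatives and under 1 chosen after seeing the data, which kept outlier spots. No sign of a member called 2-fold different turned under any of the 9. Of the other values, only Krt5 changed sign: it ran from -0.17 to 0.19 on the log2 scale with the Dnmt1 hairpin and from -0.41 to 0.07 between the ATM-labelled array and the Dnmt1 shRNA array. Of 189 member values under the alternatives, 37 moved by more than the scanner error. The count of members at least 2-fold higher was 4 to 5 with the Dnmt1 hairpin. On the ATM-labelled array it was 1 with normexp, with scaling to the array median and with quantile normalization, since Krt7 stood at the 2-fold limit, and 3 of 8 compared with the positive-and-significant mark. The difference of simple and basal keratins on the Dnmt1 shRNA array relative to the empty-vector array was 1.17 with normexp, 2.40 with the positive-and-significant mark for detection and 2.58 without a filter on dim probes. On the ATM-labelled array relative to the empty-vector array it was -3.21 with normexp. Between the ATM-labelled array and the Dnmt1 shRNA array it was -3.93 with normexp, -5.76 with that mark and -6.00 without a filter. Normexp was run with an offset of 50 units, which by arithmetic makes ratios of low signals smaller. How much of the normexp shifts this offset accounts for was not tested. Under the other settings dim signals near background stand in for bounds, and without a filter the dim second Krt5 probe is averaged in as well, so these are not measured differences. Over all genes, totals with the Dnmt1 hairpin were 716 higher and 217 lower, but 444 and 55 with normexp, 1379 and 598 with the positive-and-significant mark and 1282 and 565 without a filter. On the ATM-labelled array they were 1000 and 903, but 1517 and 1452 with that mark and 1442 and 1370 without a filter. Between the ATM-labelled array and the Dnmt1 shRNA array 982 were higher, but 626 with normexp. Scaling to the median moved the median of all genes to -0.24 with the Dnmt1 hairpin and to 0.21 between the ATM-labelled array and the Dnmt1 shRNA array. Relative to that shift Krt8 and Krt18, at 4.22 and 5.08, were 4.47 and 5.32 higher. The genes of the further lists were not recomputed under the alternatives. Evpl and Itgb4, at log2 ratios of 1.10 and 1.01 with the Dnmt1 hairpin, fall under 2-fold with the shift to -0.24. Other list genes just past 2-fold can fall as well. No paired analysis was possible because each group has 1 array, and no array could be left out for the same reason. The lowest detected signals, 25.1 to 37.8 units, limit Dsp, Krt8 and Krt18 to bounds on the dim side. The Krt7 ratios to the empty-vector array use its own dim signal of 44.1 and are not minima.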
